A study of Mus musculus with 24 samples.

Results

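The collagen chain genes of the mouse genome were followed through 24 RNA-seq libraries of 4T1-T cells, a line derived from the mouse mammary carcinoma line 4T1. Members were all rows of the deposited count table whose symbol has the form of a collagen chain (Col, a type number, the letter a and a chain number), which gave 44 of 23478 symbols. A chain was called expressed with 10 or more counts in 4 or more libraries, and 23 of the 44 met this. The cells carried shAsns-1 or shAsns-2, which are short hairpin RNAs against Asns, or shRenilla, a control that targets a luciferase mouse cells do not have. Asns encodes asparagine synthetase. Per the labels they had been isolated from lung metastases or primary tumors, selected with 6-thioguanine (6TG), a drug to which 4T1 cells are resistant and which kills host cells and cultured in DMEM to which non-essential amino acids were added. The 6 groups were lung labelled shAsns-1, lung shAsns-2, lung shRenilla, tumor labelled shAsns-1, tumor shAsns-2 and tumor shRenilla, with 4 libraries each, lettered A to D. The labels do not say whether the 4 libraries of a group came from separate mice or cultures, so a p-value here reflects only how these libraries vary, which may be technical.

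A collagen molecule is a triple helix of alpha chains, and each gene encodes a single chain. Chains are sorted by the structure they build. Fibrillar chains (types I, III and V among them) form the fibres of connective tissue and are made in bulk by fibroblasts. Type IV chains form the sheet-like network of basement membranes, on which epithelial cells sit, and type VIII forms a hexagonal network of short chains. Type VI forms beaded filaments, type VII anchors epithelium to the stroma below it, FACIT chains (fibril-associated collagens with interrupted triple helices) decorate fibrils, and multiplexins such as type XVIII lie in basement membranes. In mammary tumors, fibrillar collagen comes mainly from stromal fibroblasts, while carcinoma cells make basement membrane chains.

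The 24 libraries held between 8.48 M (tumor shAsns-2 A) and 38.05 M counts, with a median of 28.7 M. Asns, the target of both Asns hairpins, went against the shAsns-1 label. Levels are given in CPM (counts-per-million, scaled by library). Asns lay between 176 and 219 CPM in the lung libraries labelled shAsns-1, between 35.8 and 51.3 CPM with lung shAsns-2 and between 53.1 and 70.2 CPM with lung shRenilla. In tumor-derived cells it lay between 152 and 185 CPM under the label shAsns-1, between 26.2 and 48.3 CPM with shAsns-2 and between 61.7 and 100 CPM with shRenilla. Every direction given below for libraries labelled shAsns-1 therefore belongs to cells with more Asns RNA, not less. Over all tested genes, the libraries farthest from the rest of their own groups were lung shAsns-2 D, with a median absolute log2 deviation of 0.274, and lung shRenilla B, with 0.360. The median over the 24 libraries was 0.139. Lung shAsns-1 D, which stands out below for some chains, was among the closest to its group on this measure (0.0984). The keratins Krt8 and Krt18, markers of the labelled carcinoma cells, were present in every library, with Krt8 between 138 and 286 CPM and Krt18 between 174 and 422 CPM. Krt5, a basal keratin, had 0 counts in all 24.

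The expressed chains covered all 6 type IV chains, 5 of 11 fibrillar chains (Col1a2, Col3a1, Col5a1, Col5a2 and Col24a1) and 4 of 6 type VI chains (Col6a1, Col6a2, Col6a3 and Col6a5). They also included Col8a1 and Col10a1 of the 3 short-chain network genes, 3 of 9 FACIT chains (Col12a1, Col14a1 and Col16a1), the anchoring fibril chain Col7a1, the transmembrane chain Col17a1 and the multiplexin Col18a1. The other 21 members were low. Col1a1 reached 36 counts, in lung shAsns-1 D. Col5a3 reached 16 counts, Col9a3 15, Col22a1 14, Col8a2 11 and Col2a1, the main chain of cartilage, 10. The remaining 15, which are Col6a4, Col6a6, Col9a1, Col9a2, Col11a1, Col11a2, Col13a1, Col15a1, Col19a1, Col20a1, Col23a1, Col25a1, Col26a1, Col27a1 and Col28a1, had at most 8 counts in any library. These 21 were not among the 12625 genes tested. When every row was tested instead, Col1a1, Col5a3 and Col22a1 were called in some comparisons. Col22a1, a FACIT chain of tissue junctions, had 9, 6, 5 and 14 counts in tumor libraries A to D labelled shAsns-1, 0, 0, 1 and 1 in tumor shAsns-2 and 0, 1, 2 and 1 in tumor shRenilla. It had 5, 3, 2 and 4 counts in lung labelled shAsns-1, 9, 4, 3 and 5 in lung shAsns-2 and 3, 6, 4 and 7 in lung shRenilla. Its tumor libraries labelled shAsns-1 thus lay above every other tumor library, on few counts. Col5a3, a rarer type V chain, had 1, 3, 6 and 16 counts in lung libraries A to D labelled shAsns-1, against 0, 1, 2 and 0 in the tumor libraries of that label.

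Per kilobase of exon (GENCODE M21, mm10), Col8a1 was the most abundant chain, at a mean of 28.7 CPM per kb over the 24 libraries. Col4a1 followed at 21.9 and Col4a2 at 10.7 CPM per kb. Every other chain was far below these. Col4a5 averaged 2.40, Col6a1 1.76, Col5a1 1.66, Col18a1 1.41 and Col16a1 1.34 CPM per kb. Across libraries the ranges of neighbours in this order overlapped, with Col8a1 at 17.7 to 53.8 and Col4a1 at 16.4 to 35.3 CPM per kb. The exception was the step between Col4a2 (7.83 to 16.8 CPM per kb) and Col4a5 (1.57 to 4.38 CPM per kb). In lung labelled shAsns-1, Col4a1 (mean 163 CPM) lay above Col8a1 (mean 144 CPM). Over all 44 chains, library sums ran from 399 CPM (lung shAsns-2 B) to 817 CPM (tumor shAsns-2 D). Col4a1, Col4a2 and Col8a1 together held 75.4 to 89.7% of that sum, and the lowest share was in lung shAsns-1 D. The fibrillar chains Col1a1, Col1a2, Col3a1 and Col5a2 held 0.0382 to 5.60%, and the highest share was in the same library. In the other 23 libraries the share of these 4 chains was at most 1.59% (lung shAsns-1 A).

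**Figure D1:**
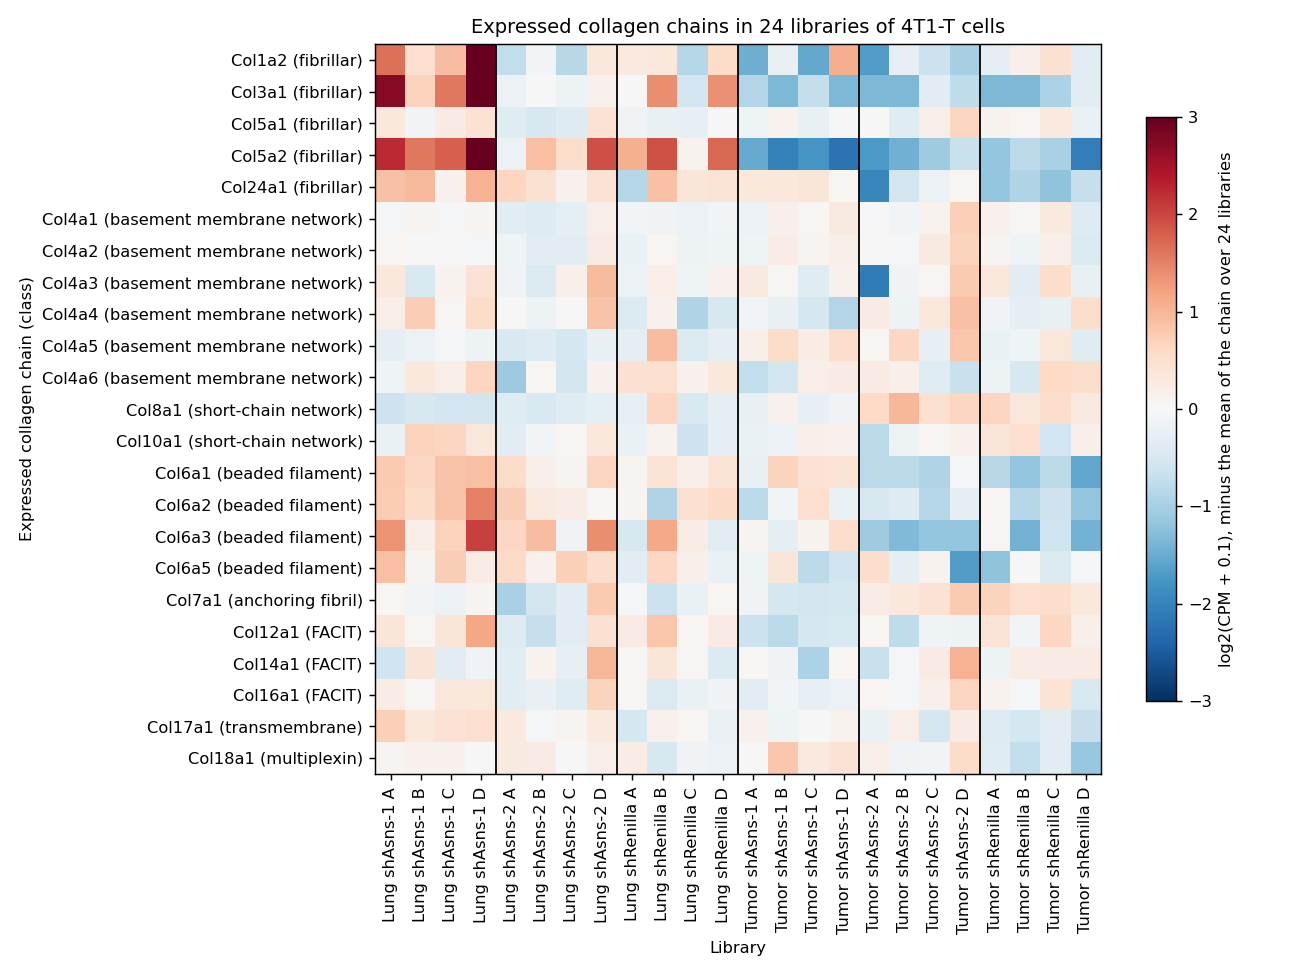
Expressed collagen chains (rows, with their class) in the 24 libraries (columns, grouped by site and hairpin label); colour is log2(CPM + 0.1) minus the chain's mean over the 24 libraries. Col1a2, Col3a1 and Col5a2 are at their highest in lung shAsns-1 D, Col5a2 is above its mean in most lung libraries and below it in every tumor library, and Col4a1 and Col4a2 were not called in any comparison.

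Col5a2, which encodes a minor chain that helps start fibril assembly, was higher in lung-derived cells under all 3 hairpin labels. Col3a1, the chain of type III collagen, was near 0 in tumor-derived cells and higher in the lung cells labelled shAsns-1. Col8a1 moved the other way, and was called lower in lung-derived cells with shAsns-2 and with shRenilla. Its shRenilla call was lost under 6 of 16 alternatives. Col6a1, a type VI chain, was higher in lung-derived cells with those same hairpins. In bulk RNA of this kind, a change in the number of cells of a type and a change in RNA per cell cannot be told apart.

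The counts of calls were as follows, with a call meaning a Benjamini-Hochberg adjusted p under 0.05 over all 12625 tested genes in edgeR's quasi-likelihood test. Between lung and tumor, under the label shAsns-1, 4 of the 23 expressed chains were higher and 0 lower, while 8.55% of all tested genes were called (6% higher). With shAsns-2, 3 chains were higher and 2 lower, where 20.9% of all tested genes were called (10.1% higher and 10.9% lower). With shRenilla 3 were higher and 2 lower, where 21.8% were called (12% higher and 9.82% lower). With shAsns-2 and shRenilla the share of chains called was close to that of all genes. Under the label shAsns-1 it was larger, a difference that was not tested. The median log2 fold change of the 23 chains (lung over tumor) was 0.48 under the label shAsns-1 (0.03 over all genes), 0.08 with shAsns-2 (0.01) and 0.15 with shRenilla (0.00). The median absolute log2 fold change was 0.48, 0.40 and 0.46 for the chains in these 3 comparisons and 0.20, 0.24 and 0.23 for all genes. For 9 chains the 4 lung libraries labelled shAsns-1 did not overlap the 4 tumor libraries of that label, where 29.9% of all genes did not overlap. The counts were 7 chains with shAsns-2 (18.2% of all genes) and 3 with shRenilla (22.2%).

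Col5a2 had 3.27, 2.06, 2.38 and 10.0 CPM in lung libraries A to D labelled shAsns-1, against 0.153, 0.0771, 0.113 and 0.0555 CPM in the tumor libraries of that label. The shAsns-2 values were 0.538, 1.24, 0.944 and 2.67 CPM in lung, against 0.120, 0.165, 0.243 and 0.354 CPM in tumor. With shRenilla it had 1.40, 2.60, 0.681 and 2.26 CPM in lung, against 0.223, 0.321, 0.267 and 0.0701 CPM in tumor. The lowest of the 12 lung libraries lay above the highest of the 12 tumor libraries. The fitted log2 fold changes were 5.44 ± 0.64 under the label shAsns-1 (SE; edgeR adjusted p = 8.69e-06), 2.54 ± 0.64 with shAsns-2 (edgeR adjusted p = 0.00555) and 2.97 ± 0.59 with shRenilla (edgeR adjusted p = 0.000594). Counts in tumor-derived cells were low, 1 to 9 per library, so the size of the fold is loosely fixed. Without lung shAsns-1 D, lung shAsns-2 D and lung shRenilla B, 3 libraries left out together as a choice made after seeing the data, the values were 4.66, 1.99 and 2.72. The shAsns-2 call was lost with limma (adjusted p = 0.0854, the highest over 16 alternatives).

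Col3a1 lies beside Col5a2 on chromosome 1, on the opposite strand, with 24.6 kb between the genes (mm10, Col3a1 at 45311538 to 45349706 and Col5a2 at 45374321 to 45503282). It had 1.60, 0.311, 0.669 and 8.53 CPM in lung libraries A to D labelled shAsns-1, against 0.0381, 0, 0.0564 and 0 CPM in the tumor libraries of that label. With shAsns-2 it had 0.127, 0.155, 0.130 and 0.178 CPM in lung, against 0, 0, 0.104 and 0.0506 CPM in tumor. With shRenilla it had 0.152, 0.577, 0.0717 and 0.566 CPM in lung, against 0, 0, 0.0334 and 0.105 CPM in tumor. Its counts summed to 296 in lung and 3 in tumor under the label shAsns-1, a ratio of 106 after scaling for depth (95% exact interval 35.9 to 516, covering counting error only). Lung shAsns-1 D held 221 of the 296, and without it the ratio was 34.6 (11.4 to 172). The corresponding ratios were 3.43 (1.13 to 13.9) with shAsns-2 and 10.3 (3.73 to 39.3) with shRenilla. EdgeR called Col3a1 higher in lung under the label shAsns-1 (log2 fold change 6.59 ± 1.03, adjusted p = 0.000271). With shRenilla the value was 3.18 ± 1.28 (edgeR adjusted p = 0.0754) and with shAsns-2 1.68 ± 1.52 (edgeR adjusted p = 0.467). The call under the label shAsns-1 held in all 15 alternatives (adjusted p from 1.38e-05 to 0.00324), and without the 3 libraries named above, lung shAsns-1 D among them, the value was 4.90 ± 0.81.

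The 250 bases before the annotated start of Col3a1 are shown because this gene had the largest fitted difference between lung and tumor among the chains under the label shAsns-1. It was not called with shAsns-2 or shRenilla. The bases are chr1:45311288-45311537 on the plus strand (RefSeq, GRCm38.p6), written 5′ to 3′ and ending at the last base before the start, with a TATAAA match in capitals at positions -117 to -112.
Col3a1: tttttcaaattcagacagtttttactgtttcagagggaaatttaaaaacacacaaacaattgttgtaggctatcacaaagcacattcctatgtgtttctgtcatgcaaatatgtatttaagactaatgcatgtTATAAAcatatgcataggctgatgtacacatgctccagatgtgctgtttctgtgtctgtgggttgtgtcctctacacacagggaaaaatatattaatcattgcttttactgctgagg
Among the 32817 windows of this length in the same table, 12.4% hold TATAAA on either strand. Of the 19 expressed chains with a window, 3 hold it (Col3a1, Col10a1 and Col17a1). The other motifs searched were the CCAAT box, the GC box GGGCGG and the AP-1 type motif TGANTCA, and the window of Col3a1 held none of these on either strand. A match is a run of letters, and nothing about a factor follows from its presence or absence.

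The chains of type I collagen, the main fibre of bone, tendon and scar, were also low. Col1a2 had 2.09, 0.895, 1.23 and 8.53 CPM in lung libraries A to D labelled shAsns-1, against 0.153, 0.501, 0.141 and 1.39 CPM in the tumor libraries of that label. These groups overlapped, since tumor shAsns-1 D lay above lung shAsns-1 B and C. Col1a2 was called higher in lung under this label (2.47 ± 0.59, edgeR adjusted p = 0.0104). The call was lost without lung shAsns-1 D (1.30 ± 0.50, edgeR adjusted p = 0.145) and with only the compared groups. Over 16 alternatives, in edgeR, DESeq2 or limma, Col1a2 had an adjusted p from 0.00298 to 0.145. With shAsns-2 it had 0.317, 0.557, 0.293 and 0.782 CPM in lung, against 0.120, 0.494, 0.347 and 0.253 CPM in tumor, and with shRenilla 0.758, 0.770, 0.287 and 0.924 CPM in lung, against 0.482, 0.677, 0.868 and 0.455 CPM in tumor. Those groups overlapped too and were not called (0.46 ± 0.78 and 0.15 ± 0.66). Its partner Col1a1, which supplies most chains of the type I helix, was too low to be tested. It had 10, 2, 13 and 36 counts in lung libraries A to D labelled shAsns-1, against 0, 0, 0 and 1 in the tumor libraries of that label, a ratio of 65.5 after scaling (95% exact interval 11.3 to 2628), and of 34.6 (5.67 to 1421) without lung shAsns-1 D. With shRenilla Col1a1 had 4, 3, 6 and 8 counts in lung, against 0, 0, 0 and 2 in tumor (ratio 10.0, interval 2.45 to 88.1). With shAsns-2 it had 3, 2, 2 and 5 counts in lung, against 0, 0, 2 and 1 in tumor (ratio 3.05, interval 0.822 to 16.8).

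**Figure D2:**
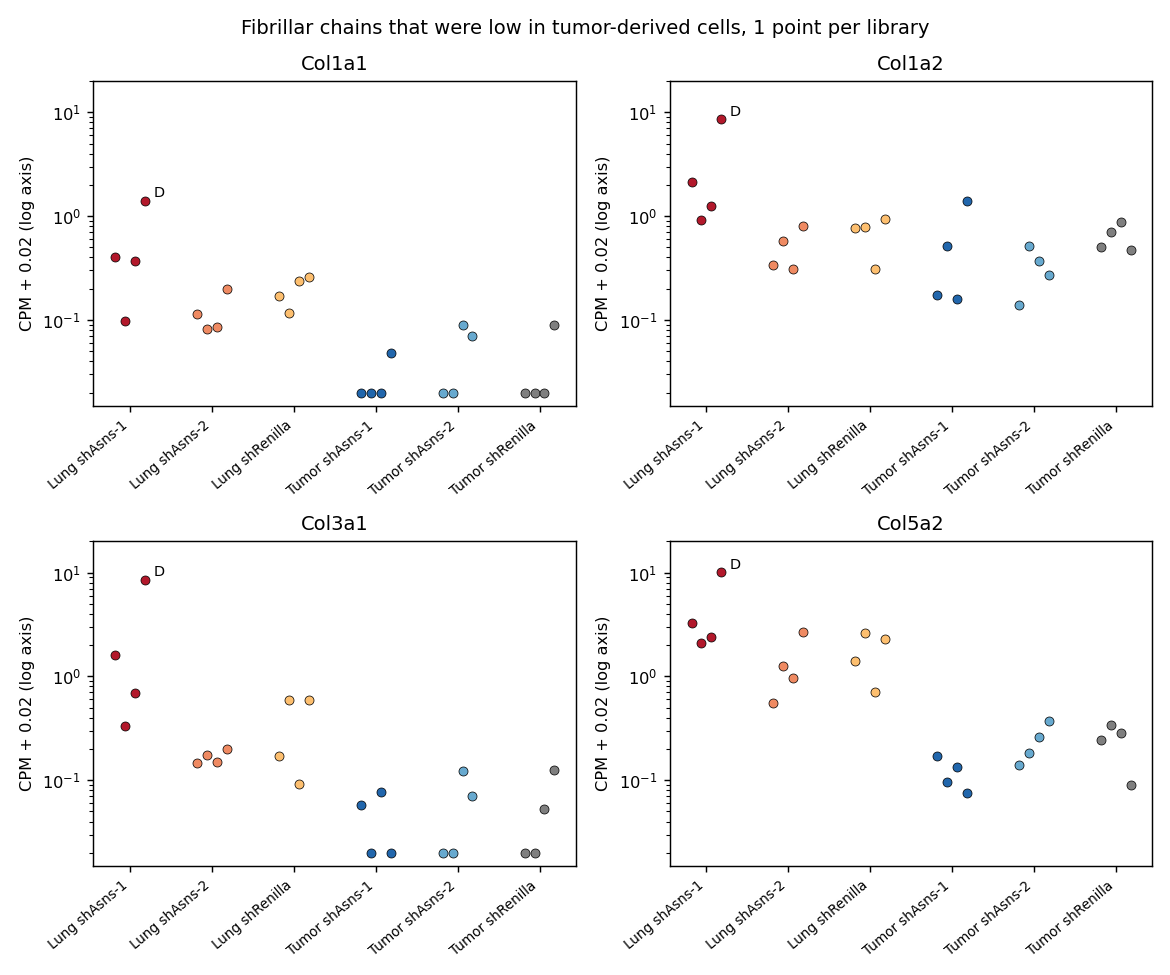
CPM + 0.02 (log axis) of Col1a1, Col1a2, Col3a1 and Col5a2 in each library, 1 point per library, lung groups left of tumor groups; D marks lung shAsns-1 D. Lung shAsns-1 D is the highest of the 24 libraries for all 4 chains, and Col5a2 is higher in each lung library than in any tumor library.

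Lung shAsns-1 D was the highest of the 24 libraries for 9 of the 23 expressed chains, and also for Col1a1. The share of all tested genes at their highest in this library was not counted, so the 9 have no background beside them. Against the mean of lung shAsns-1 A, B and C it was 9.92-fold higher for Col3a1, 6.07-fold for Col1a2, 5.17-fold for Col1a1, 3.89-fold for Col5a2 and 2.49-fold for Col6a3. These are values of 1 library, given with no test. Of the 23 expressed chains, 4 were over 2-fold higher in it, where 161 of all 12625 tested genes were (1.28%). The library was singled out for its collagen values, so this count restates that choice and supports nothing further. The chains that make up most of the collagen RNA did not share this, with ratios of 1.07 for Col4a1, 0.951 for Col4a2 and 0.994 for Col8a1. The RNA of the type V chains differed in this library, with Col5a2 3.89-fold and Col5a1 1.21-fold higher. They started from means of 2.57 and 15.5 CPM in lung shAsns-1 A, B and C.

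Of 14 fibroblast markers, 8 were at their highest of all 24 libraries in lung shAsns-1 D. Counts of markers highest in this library have no share of all genes beside them, and the library was singled out for its collagen values. Pdgfra, a growth factor receptor on the list, was between 14.5 and 48.1 CPM in every library, so sums are given without it. The other 13 summed to between 2.27 and 13.1 CPM in lung labelled shAsns-1 (13.1 in D), 1.11 to 1.86 CPM in lung shAsns-2 and 1.33 to 2.38 CPM in lung shRenilla. In tumor-derived cells they summed to 0.874 to 1.19 CPM under the label shAsns-1, 2.28 to 4.54 CPM with shAsns-2 and 2.49 to 4.17 CPM with shRenilla. With shAsns-2 and shRenilla this sum was thus lower in lung than in tumor. Much of the tumor sum there was Postn, the secreted matrix protein periostin, at 2.51, 2.61, 2.84 and 1.42 CPM in tumor shAsns-2 and 3.04, 3.31, 3.47 and 1.89 CPM in tumor shRenilla. With Pdgfra kept in, the sum went the other way. All 14 markers summed to 23.68 to 26.65 CPM in lung shAsns-2, against 18.72 to 23.66 CPM in tumor shAsns-2. With shRenilla they summed to 26.1 to 50.4 CPM in lung, against 17.0 to 20.9 CPM in tumor. Dcn, the fibril-binding proteoglycan decorin, had 2.40, 2.92, 1.31 and 8.61 CPM in lung libraries A to D labelled shAsns-1, and Mfap5, a microfibril protein, 0.609, 0.156, 0.642 and 2.05 CPM. Pi16, Clec3b and Fmod were at 0 in lung shAsns-1 D. The leukocyte list summed to 3.62 to 10.2 CPM in lung labelled shAsns-1, with Lyz2, a macrophage lysozyme, at 7.84 CPM in D and 1.36 to 4.11 CPM in the other 3 libraries. It summed to at most 4.53 CPM in every other group. The smooth muscle and pericyte list, with 5 of 8 markers highest in D, summed to 10.1 to 18.9 CPM in lung labelled shAsns-1, 7.74 to 16.5 CPM in lung shAsns-2, 11.0 to 13.5 CPM in lung shRenilla and 4.35 to 13.4 CPM over the tumor groups. The endothelial list summed to 1.57 to 5.76 CPM over all 24 libraries and the lung epithelium list to at most 0.405 CPM. The list of 8 carcinoma epithelium markers, Krt8 and Krt18 among them, summed to 421 to 471 CPM in lung labelled shAsns-1. It summed to 379 to 775 CPM in lung shAsns-2 and 421 to 588 CPM in lung shRenilla. In tumor the sums were 447 to 592 CPM under the label shAsns-1, 836 to 953 CPM with shAsns-2 and 672 to 828 CPM with shRenilla. The part of other cell types in the collagen values was not tested.

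Col24a1, a fibrillar chain known mainly from developing bone and eye, was low as well. It had 0.609, 0.662, 0.321 and 0.695 CPM in lung libraries A to D labelled shAsns-1, against 0.381, 0.385, 0.395 and 0.305 CPM in the tumor libraries of that label. The shAsns-2 values were 0.507, 0.433, 0.325 and 0.426 CPM in lung, against 0, 0.165, 0.243 and 0.304 CPM in tumor. With shRenilla it had 0.114, 0.609, 0.394 and 0.417 CPM in lung, against 0.0742, 0.107, 0.0667 and 0.140 CPM in tumor. Only the shRenilla difference was called (1.96 ± 0.47, edgeR adjusted p = 0.00326), although lung A lay below tumor D there. The other differences were 1.05 ± 0.43 with shAsns-2 and 0.61 ± 0.35 under the label shAsns-1. Col5a1, which pairs with Col5a2 in type V collagen, was called in no comparison. It had 17.1, 13.1, 16.3 and 18.7 CPM in lung labelled shAsns-1, against 12.5, 14.9, 11.8 and 13.6 CPM in tumor of that label. The shAsns-2 values were 10.6, 9.91, 10.5 and 18.6 CPM in lung, against 14.0, 10.7, 15.5 and 21.5 CPM in tumor. The shRenilla values were 12.8, 11.8, 11.6 and 13.9 CPM in lung, against 14.9, 14.4, 17.0 and 11.9 CPM in tumor. Its groups overlapped between the sites under each label. Its exons overlap transcripts on the opposite strand.

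Of the type VI chains, Col6a1 was called higher in lung-derived cells with shAsns-2 and with shRenilla, and Col6a3 with shAsns-2. Col6a1 had 10.3, 7.68, 7.29 and 10.9 CPM in lung shAsns-2, against 3.94, 3.92, 3.64 and 6.68 CPM in tumor shAsns-2 (0.99 ± 0.21, edgeR adjusted p = 0.000935). It had 7.31, 9.27, 7.78 and 9.27 CPM in lung shRenilla, against 3.82, 2.99, 4.00 and 2.28 CPM in tumor shRenilla (1.36 ± 0.21, edgeR adjusted p = 1.88e-05). These groups did not overlap. Under the label shAsns-1 Col6a1 had 12.1, 10.7, 12.6 and 13.0 CPM in lung, against 5.91, 11.1, 9.41 and 9.27 CPM in tumor, which overlapped and was not called (0.44 ± 0.19, edgeR adjusted p = 0.151). Col6a3, the large chain that carries most of the globular domains of type VI, had 0.602, 0.774, 0.325 and 1.10 CPM in lung shAsns-2, against 0.120, 0.0823, 0.104 and 0.101 CPM in tumor shAsns-2 (2.79 ± 0.63, edgeR adjusted p = 0.00204). It had 1.07, 0.428, 0.642 and 1.78 CPM in lung and 0.381, 0.270, 0.395 and 0.555 CPM in tumor under the label shAsns-1 (1.24 ± 0.44, edgeR adjusted p = 0.0774). With shRenilla it had 0.227, 0.898, 0.430 and 0.268 CPM in lung, against 0.371, 0.0713, 0.200 and 0.0701 CPM in tumor (1.36 ± 0.56, edgeR adjusted p = 0.0825). Col6a2, the third chain of the classical type VI molecule, was not called in any of the 3, with log2 fold changes between 1.17 and 1.30, and Col6a5 gave 0.69 to 1.11. Per kilobase Col6a1 averaged 1.76 and Col6a2 0.0291 CPM over the 24 libraries, and Col6a3, whose protein shares a molecule with theirs, averaged 0.0392 CPM per kb.

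Col8a1, a chain of the short-chain network best known from blood vessel walls and the membrane under the corneal endothelium, fell in lung-derived cells with shAsns-2. It had 164, 156, 165 and 172 CPM in lung shAsns-2, against 321, 422, 295 and 333 CPM in tumor shAsns-2, with no overlap (-1.06 ± 0.16, edgeR adjusted p = 3.24e-05). It had 180, 331, 153 and 175 CPM in lung shRenilla, against 329, 270, 308 and 257 CPM in tumor shRenilla (-0.47 ± 0.16, edgeR adjusted p = 0.0377). There lung B lay above every tumor library and the other 3 lung libraries below them. Without lung B and the 2 other libraries left out with it, a choice made after seeing the data, the value was -0.78 ± 0.11. Taking out the highest lung library pushes the value down, so this adds no support for the call. Leaving out lung C gave -0.36 (edgeR adjusted p = 0.122), and the call was also lost without lung A or D, without tumor A or C and with only the compared groups. Over 16 alternatives, in edgeR, DESeq2 or limma, the adjusted p ran from 5.06e-07 to 0.149. Under the label shAsns-1 Col8a1 had 138, 153, 143 and 144 CPM in lung, against 181, 231, 179 and 198 CPM in tumor. Those groups did not overlap either, and the difference was not called (-0.45 ± 0.16, edgeR adjusted p = 0.0824).

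The 250 bases before the start of Col8a1 are shown because it had the highest mean per length over the 24 libraries. It was also called lower in lung-derived cells with shAsns-2 and shRenilla, though not under the label shAsns-1. They are chr16:57754738-57754987 (RefSeq, GRCm38.p6) and are written 5′ to 3′ on the minus strand, which is the strand of the gene. Capitals mark 4 matches to GGGCGG, all in reverse complement, starting at -170, -73, -66 and -23.
Col8a1: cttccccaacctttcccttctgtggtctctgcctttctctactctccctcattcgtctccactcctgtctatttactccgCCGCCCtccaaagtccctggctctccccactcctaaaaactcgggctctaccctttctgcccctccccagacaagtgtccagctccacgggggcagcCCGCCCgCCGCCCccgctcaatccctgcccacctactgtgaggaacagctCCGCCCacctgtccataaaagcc
GGGCGG occurred on either strand in 32.7% of all windows and in 11 of the 19 expressed chains with a window. CCAAT occurred in 33.8% of all windows and in 8 of the 19 (Col1a2, Col4a1, Col4a2, Col4a5, Col7a1, Col16a1, Col17a1 and Col18a1). TGANTCA occurred in 6.75% of all windows and only in Col6a1 among the 19. The Col8a1 window held no match to the other 3 motifs on either strand.

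Of the 6 type IV chains, Col4a5 was called in 1 comparison and the other 5 in none. Col4a1 and Col4a2, which pair in the basement membrane molecule of most tissues, overlap head to head by 22 bases on chromosome 8, so reads in the overlap could be given to either gene if strand was not used. Col4a1 had 158, 171, 154 and 171 CPM in lung labelled shAsns-1, against 143, 181, 169 and 195 CPM in tumor of that label. With shAsns-2 it had 130, 123, 132 and 187 CPM in lung, against 163, 153, 175 and 264 CPM in tumor, and with shRenilla 153, 150, 143 and 153 CPM in lung, against 177, 166, 198 and 123 CPM in tumor. Each pair of groups overlapped, and neither Col4a1 nor Col4a2 was called in any of the 9 comparisons. Col4a2 averaged 70.2 ± 2.09, 65.0 ± 12.8 and 65.2 ± 5.15 CPM (SD, n = 4 each) in lung labelled shAsns-1, shAsns-2 and shRenilla, and 75.3 ± 7.70, 83.7 ± 19.6 and 67.3 ± 11.8 CPM in tumor under the same labels. With shAsns-2 the log2 fold changes of lung over tumor were -0.40 ± 0.16 for Col4a1 and -0.37 ± 0.14 for Col4a2 (edgeR adjusted p = 0.0676 and 0.0719). Lung shAsns-2 D, which stood apart, was the highest lung library of that group for both chains. Both were called lower without it, but leaving out the highest lung library pushes toward such a call. The ratio of Col4a1 to Col4a2 stayed between 2.04 and 2.56 in CPM in all 24 libraries (mean 2.30 ± 0.151, SD), and between 1.81 and 2.27 per kilobase of exon. Because the chains share library and depth, this is a description of the pair and not a test.

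**Figure D3:**
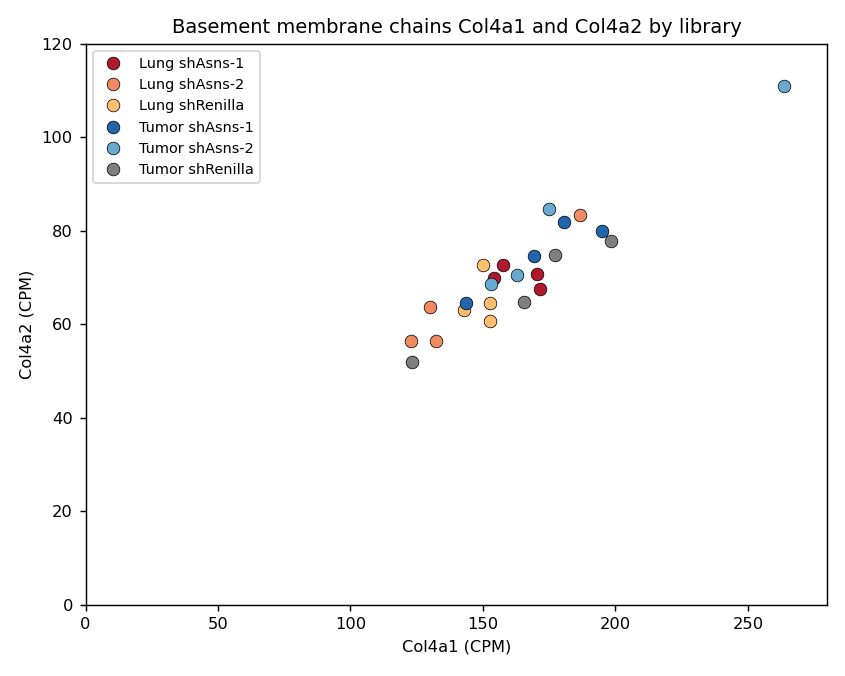
Col4a1 (x axis, CPM) against Col4a2 (y axis, CPM), 1 point per library, coloured by group, with both axes starting at 0. The points lie near a line through the origin, with ratios between 2.04 and 2.56, and tumor shAsns-2 D is the farthest out, at 264 and 111 CPM.

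Col4a5, which forms the network of kidney and epithelial basement membranes with Col4a3, Col4a4 or Col4a6, was called lower in lung shAsns-2. It had 11.2, 11.7, 10.6 and 13.3 CPM there, against 16.0, 23.6, 12.9 and 27.4 CPM in tumor shAsns-2 (-0.78 ± 0.24, edgeR adjusted p = 0.0212). Lung D lay above tumor C, and the call was lost without any 1 of lung A, lung C, tumor B and tumor D (edgeR adjusted p from 0.0580 to 0.107). With no filter Col4a5 was not called there either. With shRenilla it had 12.5, 29.4, 11.3 and 12.6 CPM in lung, against 13.4, 14.0, 19.5 and 12.0 CPM in tumor, where lung B was the highest of all. Under the label shAsns-1 it had 12.7, 13.6, 14.7 and 13.9 CPM in lung, against 17.4, 22.7, 18.0 and 22.3 CPM in tumor, which did not overlap but was not called (-0.55 ± 0.24, edgeR adjusted p = 0.142). Col4a3, Col4a4 and Col4a6 were called nowhere, and their group means were at most 0.999 CPM. Col4a3 shares exon bases with C430014B12Rik on the opposite strand, and whether counting used strand is not given in the sources used here.

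Of the remaining chains, Col12a1, a FACIT chain of stressed and healing connective tissue, was higher in lung than in tumor under the label shAsns-1. It had 6.47, 5.22, 6.55 and 11.3 CPM in lung, against 3.17, 2.85, 3.44 and 3.64 CPM in tumor, with no overlap (1.17 ± 0.25, edgeR adjusted p = 0.00441). The call held without the 3 libraries named above (0.89 ± 0.18). With shAsns-2 the log2 fold change was 0.08 ± 0.26, and with shRenilla it was 0.08 ± 0.24. Col7a1, the anchoring fibril chain, averaged 6.06 ± 1.22 CPM in lung shRenilla and 9.80 ± 0.995 CPM in tumor shRenilla (SD, n = 4 each), a call without overlap (-0.69 ± 0.24, edgeR adjusted p = 0.0370). That call was lost without any 1 of lung B, lung C, tumor A, tumor B and tumor C (edgeR adjusted p from 0.0657 to 0.108). It was also lost with no filter. Col10a1, Col14a1, Col16a1, Col17a1 and Col18a1 were not called between the sites. The exons of Col10a1, a cartilage growth plate chain, overlap Nt5dc1 on the opposite strand.

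**Figure D4:**
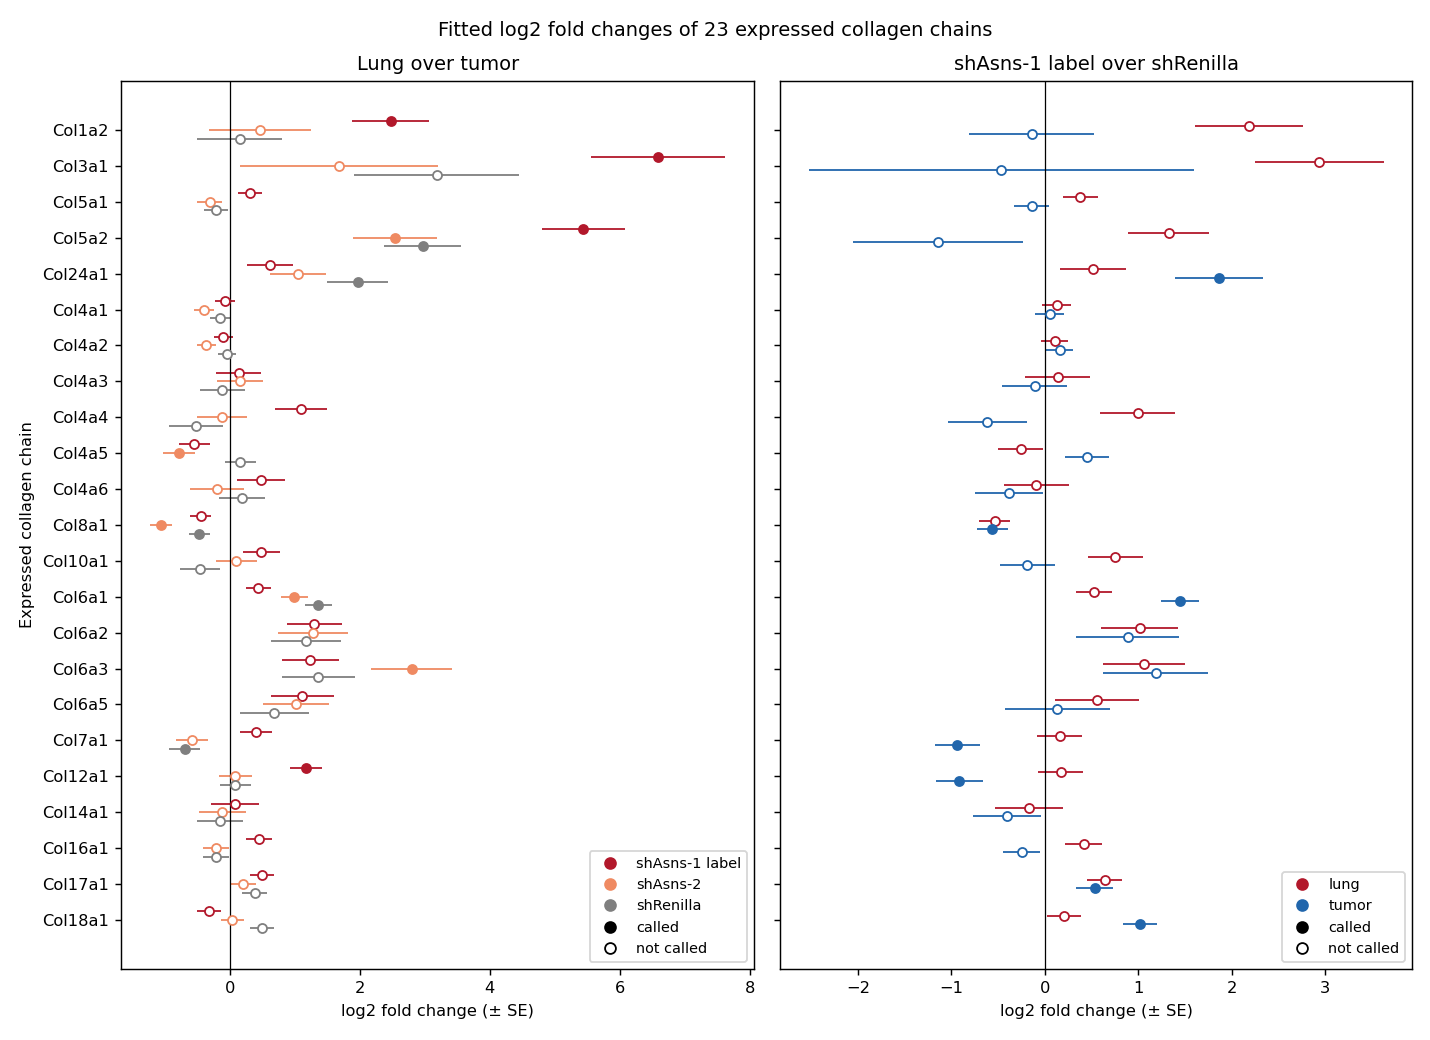
Fitted log2 fold changes (± SE) of the 23 expressed chains, for lung over tumor under each hairpin label (left) and for the label shAsns-1 over shRenilla in lung and tumor (right); filled points were called at an adjusted p under 0.05. Col5a2 is filled under all 3 labels on the left, and every filled point on the right belongs to tumor-derived cells.

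In tumor-derived cells, the libraries labelled shAsns-1 differed from shRenilla in 7 chains, 4 higher and 3 lower, while 33.9% of all tested genes were called (16.2% higher and 17.7% lower). Asns RNA was higher under this label, as given above. Col6a1, Col18a1 and Col24a1 rose and Col7a1, Col8a1 and Col12a1 fell. The share of chains (7 of 23) was close to the background. The median log2 fold change of the chains was -0.14, against -0.01 over all genes, and the median absolute change was 0.47, against 0.29. The 7 chains called were also the 7 whose groups did not overlap, where 37.2% of all genes did not overlap.

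Col6a1 had 5.91, 11.1, 9.41 and 9.27 CPM in tumor libraries A to D labelled shAsns-1, against 3.82, 2.99, 4.00 and 2.28 CPM with shRenilla (1.45 ± 0.21, edgeR adjusted p = 5.91e-06). Col18a1, which holds the endostatin fragment at its end, had 9.38, 16.8, 11.6 and 12.8 CPM, against 7.38, 5.67, 7.58 and 4.31 CPM with shRenilla (1.02 ± 0.18, edgeR adjusted p = 0.000127). Col24a1 had 10, 10, 14 and 11 counts, against 2, 3, 2 and 4 counts with shRenilla (1.87 ± 0.48, edgeR adjusted p = 0.00350). These increases stayed called in all alternatives that tested them (16, 16 and 15). Col17a1, the transmembrane chain of the hemidesmosome that fixes epithelial cells to the basement membrane, averaged 1.56 ± 0.131 CPM, against 1.07 ± 0.129 CPM with shRenilla (SD, n = 4 each). Its call was weak (0.53 ± 0.20, edgeR adjusted p = 0.0373) and was lost under 7 of 16 alternatives, including the loss of any 1 of tumor shAsns-1 A, C and D or tumor shRenilla B and D (edgeR adjusted p from 0.0617 to 0.101).

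Col8a1 had 181, 231, 179 and 198 CPM in the tumor libraries labelled shAsns-1, against 329, 270, 308 and 257 CPM with shRenilla (-0.56 ± 0.16, edgeR adjusted p = 0.00941). Col7a1 averaged 5.13 ± 0.828 CPM, against 9.80 ± 0.995 CPM with shRenilla (-0.94 ± 0.24, edgeR adjusted p = 0.00373). Col12a1 had 3.17, 2.85, 3.44 and 3.64 CPM, against 6.57, 4.78, 7.81 and 5.61 CPM with shRenilla (-0.91 ± 0.25, edgeR adjusted p = 0.00598). The fibrillar chains Col1a2, Col3a1, Col5a1 and Col5a2 were not called. Of these, Col5a2 had the largest difference (-1.14 ± 0.91, edgeR adjusted p = 0.347), on 12 counts over the 4 libraries labelled shAsns-1 and 25 over those of shRenilla.

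**Figure D5:**
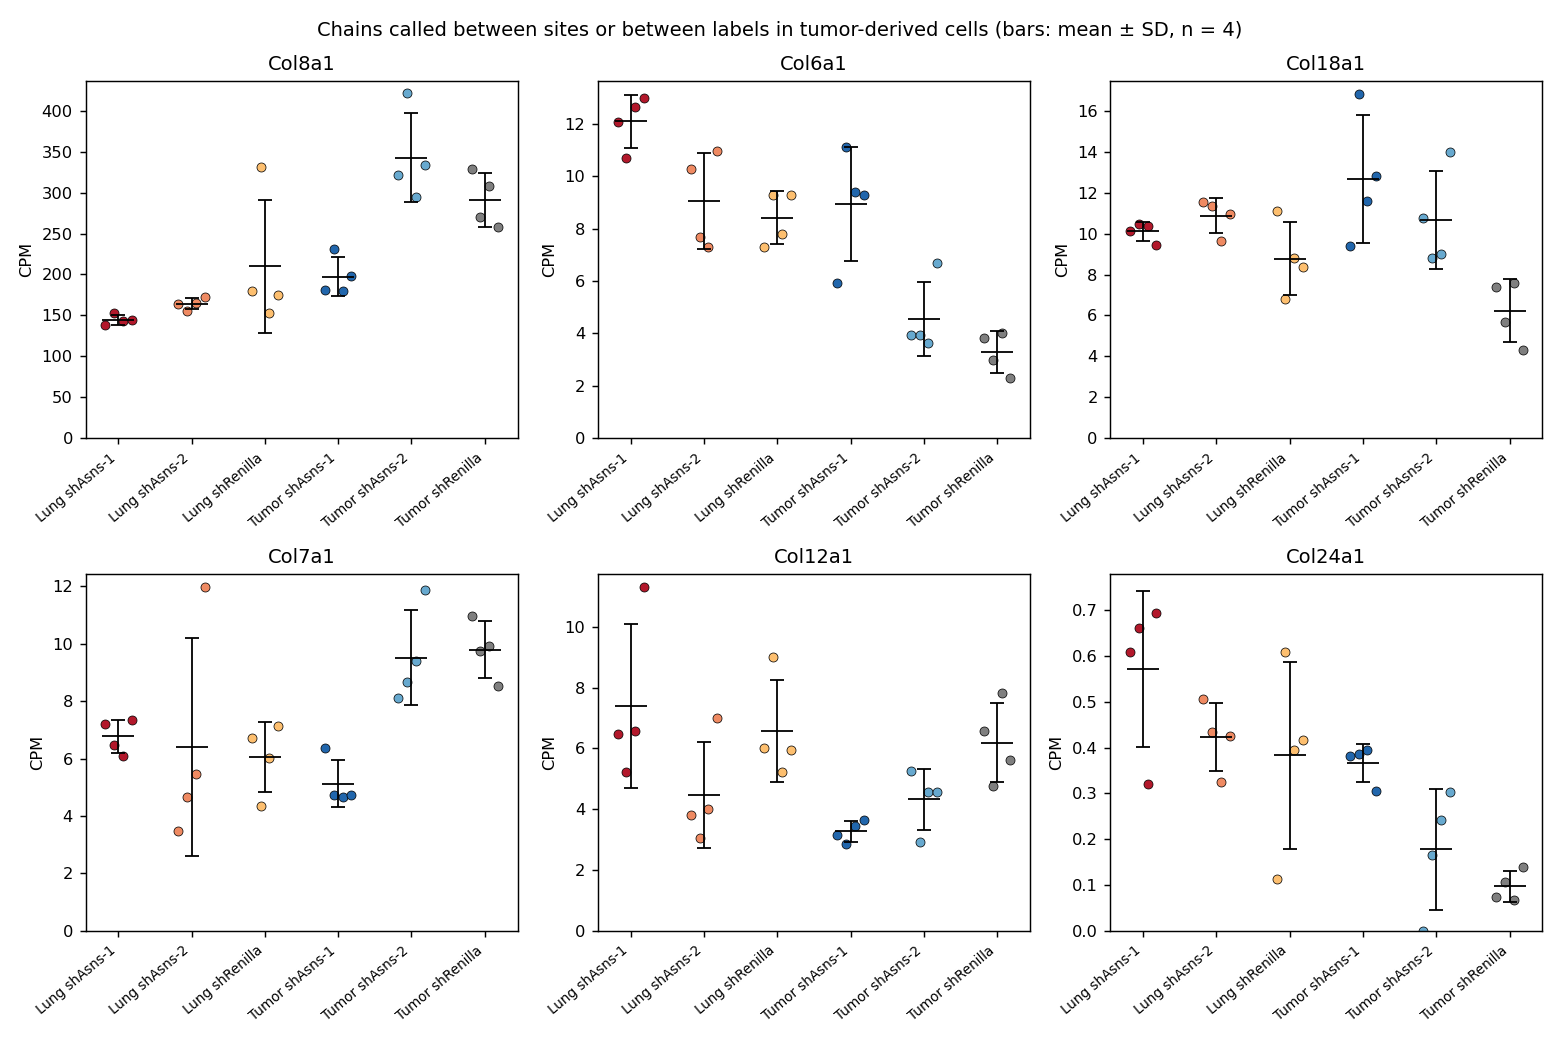
CPM of Col8a1, Col6a1, Col18a1, Col7a1, Col12a1 and Col24a1 in each library, with group mean ± SD (n = 4); lung groups are left of tumor groups and all axes start at 0. In tumor-derived cells the points labelled shAsns-1 lie apart from shRenilla for all 6 chains, below it for Col8a1, Col7a1 and Col12a1 and above it for the other 3.

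Tumor shAsns-2, in which Asns was lower, differed from tumor shRenilla in 0 chains by edgeR's quasi-likelihood test, where 0.0634% of all genes were called. At an unadjusted p under 0.05 there were 5 chains, 4 higher and 1 lower, and 7.07% of all genes passed that limit. DESeq2 called 1 chain, Col18a1, and 44 of all 12625 tested genes. Limma with library weights called 0 chains and 13 of all tested genes. Col18a1 had 10.8, 8.83, 9.01 and 14.0 CPM with shAsns-2, against 7.38, 5.67, 7.58 and 4.31 CPM with shRenilla, with no overlap (0.76 ± 0.19, edgeR adjusted p = 0.143), the 1 chain of which this held, against 3.33% of all genes. The other chains under the unadjusted limit were Col4a2 (0.32 ± 0.14), Col6a1 (0.47 ± 0.22), Col17a1 (0.48 ± 0.20) and Col12a1 (-0.56 ± 0.25). The comparisons of both hairpin labels with shRenilla use the same 4 shRenilla libraries.

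Set against tumor shAsns-2, the tumor libraries labelled shAsns-1 had 2 chains higher and 2 lower, where 27.1% of all tested genes were called (12.1% higher and 15% lower). The groups did not overlap for 5 chains and for 29.7% of all genes. Col6a1 was higher (0.98 ± 0.21, edgeR adjusted p = 0.000944), although tumor shAsns-2 D, at 6.68 CPM, lay above tumor shAsns-1 A. Col6a3 was higher without overlap (2.02 ± 0.67, edgeR adjusted p = 0.0268), on 51 counts under the label shAsns-1 and 9 with shAsns-2, and its call was lost without any 1 of tumor shAsns-1 D and tumor shAsns-2 B, C and D (edgeR adjusted p from 0.0509 to 0.0769). Col8a1 fell to 197 ± 23.9 CPM under the label shAsns-1, against 343 ± 54.9 CPM with shAsns-2 (SD, n = 4 each; -0.80 ± 0.16, edgeR adjusted p = 0.000704). Col7a1 averaged 5.13 ± 0.828 CPM under the label shAsns-1 and 9.52 ± 1.66 CPM with shAsns-2 (-0.90 ± 0.24, edgeR adjusted p = 0.00755).

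In lung-derived cells, edgeR called 0 of the 23 chains between the libraries labelled shAsns-1, where Asns RNA was again higher, and shRenilla. Of all genes 0.206% were called. At an unadjusted p under 0.05 there were 11 chains, 10 higher and 1 lower, where 13.2% of all genes passed. DESeq2 called 0 chains and 73 of all tested genes. Limma with library weights called 6 chains (Col4a4, Col5a2, Col6a1, Col6a3, Col10a1 and Col17a1, all higher) and 843 of all 12625 tested genes. The median log2 fold change of the chains was 0.41, against 0.01 over all genes. Col3a1, whose library values are given above, had the largest fold change (2.94 ± 0.69, edgeR adjusted p = 0.0939), and its 296 counts labelled shAsns-1 and 43 in shRenilla gave a ratio of 7.11 (95% exact interval 5.15 to 10.0). Its groups overlapped. Lung shAsns-1 D held 221 of the 296 counts, and without it the ratio was 2.32 (1.58 to 3.46) and the fitted value 1.28 ± 0.53 (edgeR adjusted p = 0.391). It was called without lung shAsns-1 B or without lung shAsns-1 C. Col1a2 gave 2.19 ± 0.58 (edgeR adjusted p = 0.139) and Col5a2 1.33 ± 0.43 (edgeR adjusted p = 0.249), and both had overlapping groups. Without lung shAsns-1 D they gave 1.03 ± 0.49 and 0.57 ± 0.38 (edgeR adjusted p = 0.438 and 0.558). Col1a1 gave a ratio of 3.00 (interval 1.80 to 5.19) on 61 and 21 counts. Lung shAsns-1 D held 36 of the 61, and without it the ratio was 1.59 (0.852 to 2.98). The groups did not overlap for 5 chains, with Col4a1, Col6a1, Col16a1 and Col17a1 higher and Col8a1 lower, where 10.9% of all genes did not overlap.

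Lung shAsns-2 differed from lung shRenilla in 0 chains by edgeR, where 0% of all genes were called. At an unadjusted p under 0.05 there were 4 chains, all lower (Col4a5, Col4a6, Col8a1 and Col12a1), where 8.46% of all genes passed. DESeq2 called 0 chains and 12 of all tested genes. Limma with library weights called 2 chains, Col7a1 and Col12a1, both lower, and 1582 of all 12625 tested genes. In edgeR Col7a1 gave 0.07 ± 0.24. The groups did not overlap for 1 chain, Col4a6, and for 3.17% of all genes. Col12a1 had 3.80, 3.07, 4.00 and 7.00 CPM with shAsns-2, against 6.02, 9.01, 5.23 and 5.96 CPM with shRenilla (-0.56 ± 0.24, edgeR adjusted p = 0.539). Lung shAsns-2 D was the highest of its group there, and so was lung shRenilla B, the libraries farthest from their groups.

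Between the lung libraries labelled shAsns-1 and lung shAsns-2, edgeR called 1 chain, Col3a1, higher under the label shAsns-1 (4.18 ± 0.79, adjusted p = 0.0145), where 0.261% of all tested genes were called (0.143% higher). Its groups did not overlap, as for 4 chains and 5.39% of all genes, since the lowest library labelled shAsns-1 (B, 0.311 CPM) lay above the highest of shAsns-2 (D, 0.178 CPM). The call was lost without lung shAsns-1 D (2.49 ± 0.60, edgeR adjusted p = 0.218) and with no filter. It was also lost without any 1 of lung shAsns-2 A, B and C (edgeR adjusted p from 0.0575 to 0.0783). Over 15 alternatives, not all of them in edgeR, the adjusted p ran from 0.00223 to 0.218. Col1a2 did not overlap either and stood just past the limit (2.70 ± 0.61, edgeR adjusted p = 0.0525). Col5a2 gave 1.72 ± 0.45 (edgeR adjusted p = 0.129). Without lung shAsns-1 D, Col1a2 gave 1.52 ± 0.51 and Col5a2 0.94 ± 0.38 (edgeR adjusted p = 0.811 and 1.000).

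Whether the label effect differed between lung and tumor was tested directly. For the label shAsns-1 over shRenilla, 4 of the 23 chains differed between the sites, where 14.2% of all genes did, which is close to the share of chains. The effect on Col6a1 was smaller in lung (0.52 ± 0.19) than in tumor (1.45 ± 0.21), a difference of -0.92 ± 0.28 (edgeR adjusted p = 0.0279). Col18a1 differed by -0.81 ± 0.26 (edgeR adjusted p = 0.0351), Col7a1 by 1.10 ± 0.34 (edgeR adjusted p = 0.0312) and Col12a1 by 1.08 ± 0.34 (edgeR adjusted p = 0.0354). For Col1a2, Col3a1 and Col5a2 the differences were 2.33 ± 0.89, 3.41 ± 2.51 and 2.47 ± 1.01 (edgeR adjusted p = 0.0779, 0.378 and 0.0997), so a difference between sites was not called for the fibrillar chains. For shAsns-2 over shRenilla 0 chains and 0% of genes differed between the sites. For the label shAsns-1 over shAsns-2, Col12a1 alone did (1.09 ± 0.36, edgeR adjusted p = 0.0467), where 11.6% of all genes did.

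Collagen chains are hydroxylated and glycosylated in the endoplasmic reticulum, folded with the help of chaperones, trimmed and cross-linked outside the cell, and read by receptors. Of a list of 48 genes for these steps, 38 were tested. In tumor-derived cells, 8 were higher and 12 lower under the label shAsns-1 than with shRenilla (33.9% of all genes were called there), and 4 were higher and 11 lower than with shAsns-2 (27.1% of all genes). Tumor shAsns-2 against tumor shRenilla and the 3 comparisons within lung gave 0 calls each by edgeR, where at most 0.261% of all genes were called. Between lung and tumor, 8 were higher and 0 lower under the label shAsns-1 (8.55% of all genes called), 7 higher and 6 lower with shAsns-2 (20.9%), and 7 higher and 4 lower with shRenilla (21.8%). Their medians of log2 fold change in these 3 were 0.35, -0.12 and 0.11.

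The lysyl oxidase family, which cross-links collagen and elastin, split. Loxl3 averaged 6.58 ± 0.998 CPM in tumor labelled shAsns-1 and 1.68 ± 0.499 CPM in tumor shRenilla (SD, n = 4 each; 1.97 ± 0.20, edgeR adjusted p = 2.05e-08), while Loxl4 averaged 101 ± 19.8 and 233 ± 35.9 CPM in those groups (-1.20 ± 0.14, edgeR adjusted p = 3.76e-07). Between the sites with shRenilla, a comparison that uses the same 4 tumor libraries, Loxl3 averaged 6.94 ± 0.712 CPM in lung and 1.68 ± 0.499 CPM in tumor (2.05 ± 0.20, edgeR adjusted p = 1.14e-08). Loxl4 averaged 97.5 ± 12.8 CPM in lung shRenilla and 233 ± 35.9 CPM in tumor shRenilla (-1.26 ± 0.14, edgeR adjusted p = 2.25e-07). With shAsns-2, which shares no library with these, Loxl3 averaged 6.62 ± 1.26 CPM in lung and 1.80 ± 0.516 CPM in tumor (1.90 ± 0.20, edgeR adjusted p = 1.19e-07), and Loxl4 94.4 ± 19.2 CPM in lung and 239.5 ± 26.1 CPM in tumor (-1.34 ± 0.14, edgeR adjusted p = 1.18e-07). Lox itself averaged 2.31 ± 2.54 CPM in lung labelled shAsns-1 and 0.137 ± 0.0916 CPM in tumor of that label (4.01 ± 0.66, edgeR adjusted p = 0.000458), with a lung SD above the lung mean. In tumor shRenilla it averaged 0.553 ± 0.106 CPM, above the tumor libraries labelled shAsns-1 (-1.98 ± 0.76 for the label shAsns-1 over shRenilla, edgeR adjusted p = 0.0469). P4ha2, a catalytic subunit of prolyl 4-hydroxylase, fell to 7.89 ± 1.25 CPM in tumor labelled shAsns-1, against 21.9 ± 4.69 CPM in tumor shRenilla (-1.47 ± 0.22, edgeR adjusted p = 1.28e-05). It averaged 16.3 ± 4.74 CPM in lung labelled shAsns-1 (1.04 ± 0.22 over tumor of that label, edgeR adjusted p = 0.00439). Mrc2, the receptor Endo180 that takes up collagen for breakdown, averaged 0.633 ± 0.0832 CPM in tumor labelled shAsns-1 and 0.0871 ± 0.0420 CPM in tumor shRenilla (2.79 ± 0.43, edgeR adjusted p = 1.45e-05). It averaged 0.403 ± 0.153 CPM in lung shRenilla, above the same tumor shRenilla libraries (2.16 ± 0.45, edgeR adjusted p = 0.000938). With shAsns-2 Mrc2 averaged 0.299 ± 0.121 CPM in lung and 0.101 ± 0.107 CPM in tumor (1.44 ± 0.48, edgeR adjusted p = 0.0344). Leprel1, a prolyl 3-hydroxylase, was lower in tumor labelled shAsns-1 than in shRenilla (-1.12 ± 0.20, edgeR adjusted p = 8.60e-05), and Fkbp14, a folding helper, was higher in lung than tumor with shRenilla (1.07 ± 0.16, edgeR adjusted p = 1.61e-05). Against tumor shAsns-2, the tumor libraries labelled shAsns-1 were higher in Mrc2 (2.51 ± 0.44), Loxl3 (1.89 ± 0.20) and the collagen-binding integrin subunit Itga10 (1.13 ± 0.22), and lower in P4ha2 (-1.34 ± 0.22), Leprel1 (-1.27 ± 0.20) and Loxl4 (-1.24 ± 0.14).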

How the data were processed

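RNA of 24 libraries was prepared with Trizol and the NuGEN Ovation RNAseq V2 kit, per the labels' protocols. The deposited values were raw counts per gene symbol, and the submitters' processing notes name Bowtie2, HTSeq and mm10 without versions. The annotation, strand setting and filters are not given in the sources used here. Genes were tested with edgeR 4.0.16 (R 4.3.3), by a robust quasi-likelihood fit with 1 mean per group over all 24 libraries, TMM scaling and filterByExpr (12625 genes kept), with Benjamini-Hochberg adjustment over all tested genes at 0.05. CPM are TMM-scaled over the tested genes. SE was taken as the size of the log2 fold change divided by the root of F. The method was checked on simulated counts. DESeq2 1.42.0, limma 3.58.1, other filters, other scaling, only the compared groups, a block for the replicate letter and leaving out each library were alternatives. Chains were given library by library when they were Col1a1, Col1a2 or Col3a1, were called with a log2 fold change of at least 1 in size, or averaged over 10 CPM. Col7a1 and Col17a1 are given by means. Processing genes were named when called at the same size, largest first and up to a set limit per comparison. The members, lists and rules were chosen with earlier results of these data known. Intervals cover counting error only. No same-group pair of libraries agreed within sampling noise (lowest chi-square per degree of freedom 4.86 of 36 pairs).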

Additional observations from a re-analysis of the deposited data

Results flagged for a closer look

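In 11 of 84 sets of 4 libraries (chain by group), 1 library lay far outside the other 3. Chance flags about 1 in 20 sets, a rate for sets not chosen by their values. The chains here were chosen by level or call. Of the 11, 3 lie in lung shAsns-1 D, a library singled out for its collagen values, and 2 are sets with 3 libraries at 0. The 11 are therefore not read against that rate. In lung shAsns-1 D, Col1a2 was at 8.53 CPM (0.895 to 2.09 in the other 3), Col3a1 at 8.53 CPM (0.311 to 1.60) and Col5a2 at 10.0 CPM (2.06 to 3.27). In lung shAsns-2 D, Col4a1 was at 187 CPM (123 to 132 in the other 3) and Col5a1 at 18.6 CPM (9.91 to 10.6). In lung shRenilla B, Col4a5 was at 29.4 CPM (11.3 to 12.6 in the other 3) and Col8a1 at 331 CPM (153 to 180). In tumor shAsns-2 D, Col6a1 was at 6.68 CPM (3.64 to 3.94 in the other 3). In tumor shAsns-1 D, Col24a1 was low at 0.305 CPM (0.381 to 0.395 in the other 3). Col1a1 was at 0.0278 CPM in tumor shAsns-1 D and at 0.0701 CPM in tumor shRenilla D, where the other 3 libraries of each group were at 0, and these values rest on 1 and 2 counts.

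The effect of a hairpin label differed between lung-derived and tumor-derived cells for 4 chains, by a test of the difference itself in edgeR. For the label shAsns-1 over shRenilla, lung minus tumor, the log2 differences were -0.92 for Col6a1, 1.10 for Col7a1, 1.08 for Col12a1 and -0.81 for Col18a1. For the label shAsns-1 over shAsns-2 the difference was 1.09 for Col12a1. The Asns RNA of the libraries labelled shAsns-1 was higher than in shRenilla at both sites.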

How the results depend on the processing

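Over 26 calls of a chain in a comparison, 410 values under alternatives kept the direction, 372 stayed called and 38 did not. With DESeq2, 1 chain was called in tumor shAsns-2 against shRenilla (44 of all 12625 tested genes). It called 2 in lung labelled shAsns-1 against lung shAsns-2 (64 genes). With limma and library weights, 6 were called in lung labelled shAsns-1 against shRenilla (843 genes). Limma called 2 in lung shAsns-2 against shRenilla (1582 genes) and 11 in lung labelled shAsns-1 against lung shAsns-2 (1921 genes). Between lung and tumor it called 13 under the label shAsns-1 (4138 genes) and 11 with shAsns-2 (5064 genes). With only the compared groups, 0 were called in lung labelled shAsns-1 against lung shAsns-2, 9 in lung against tumor under the label shAsns-1 and 3 with shRenilla. With no filter, 0 were called in lung labelled shAsns-1 against lung shAsns-2. Without lung shAsns-1 D, lung shAsns-2 D and lung shRenilla B, an alternative chosen after seeing the data, 11 were called in lung against tumor with shAsns-2 and 8 with shRenilla. For the other settings, and for leaving out 1 library at a time, calls over all genes were not counted. Those counts of chains therefore have no background beside them. The causes were not tested.

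Leaving out 1 library at a time gave 6 to 8 chains in tumor labelled shAsns-1 against shRenilla, 3 to 4 against tumor shAsns-2 and 0 to 0 in tumor shAsns-2 against shRenilla. In lung it gave 0 to 1 under the label shAsns-1 against shRenilla (1 without lung shAsns-1 B or C), 0 to 0 for shAsns-2 against shRenilla and 0 to 4 for the label shAsns-1 against shAsns-2 (0 without lung shAsns-1 D or lung shAsns-2 A, B or C, 2 without lung shAsns-1 C, 4 without lung shAsns-1 B or lung shAsns-2 D). For lung against tumor it gave 3 to 6 under the label shAsns-1, 4 to 10 with shAsns-2 (10 without lung shAsns-2 D) and 3 to 7 with shRenilla (3 without lung shRenilla C).

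Whether the letters pair samples is not known. The correlation of deviations between same-letter libraries ran from -0.570 to 0.552, and in 0 of 15 pairs of groups were all over 0.1. With so few letters per pair of groups, this rule cannot exclude a pairing. The mean per pair of groups ran from -0.287 (tumor shRenilla with lung shAsns-2) to 0.334 (tumor shAsns-2 with lung shRenilla). With the letter as a replicate block, 3 chains were called in lung labelled shAsns-1 against lung shAsns-2, and the block moved no other count by over 1.5 times. DESeq2 size factors moved the median of all genes by at most 0.02 (log2) in size. Low counts limit Col1a1, Col3a1, Col24a1 and the 21 chains that were not tested. With no filter, Col1a1, Col5a3 and Col22a1 were called in 1 or more comparisons.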
